A study of Mus musculus and Homo sapiens with 22 samples.

Results

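The genes described here are 4 chaperones and folding enzymes of the endoplasmic reticulum (ER) and the transcription factor XBP1. They were chosen by name, with earlier results of these data known. Among 38924 gene IDs of libraries labelled as mouse 4T1 they were Hspa5, Dnajb11, Calr, Pdia3 and Xbp1. Among 42713 gene IDs of human MDA-MB-231 libraries they were HSPA5, DNAJB11, CALR, PDIA3 and XBP1. All 10 genes, 5 in each line, passed the filter on low counts and were tested.

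RNA was sequenced from both breast cancer lines after 24 h with ENMD-2076 or TAK901, kinase inhibitors known to act on Aurora kinases, or with the vehicle DMSO. MDA-MB-231 is a human line of triple-negative breast cancer and 4T1 is a mouse mammary carcinoma line. The MDA-MB-231 groups were ENMD-2076 at 2.5 or 5 µM, TAK901 at 1 or 2 µM, and DMSO. The 4T1 groups were ENMD-2076 at a lower dose of 1.25 µM and a higher dose of 2.5 µM with the DMSO libraries numbered 1 and 2, and TAK901 at 1 or 2 µM with the DMSO libraries numbered 3 and 4. Each group held 2 libraries, for 22 in all. The labels do not say that the libraries of a group came from separate cultures, so each p below measures only the spread between libraries, which may be technical. Levels are CPM, read counts scaled to the library total and by TMM factors, and fold changes are on the log2 scale over the DMSO libraries of the same set.

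Proteins bound for secretion or for membranes enter the ER unfolded. Hspa5 encodes BiP, the HSP70 chaperone of the ER lumen, and Dnajb11 encodes a J-domain co-chaperone that works with it. Calr encodes calreticulin, a lectin chaperone that holds glycoproteins, and Pdia3 encodes the disulphide isomerase that binds calreticulin and calnexin and also serves MHC class I peptide loading. Xbp1 encodes the transcription factor of the IRE1 arm of the unfolded protein response. IRE1 removes a short intron from Xbp1 mRNA under ER stress, and the spliced form directs synthesis of an activator of ER chaperone and ER-associated degradation genes. Counts per gene do not tell the spliced form from the unspliced one.

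Depth over all genes was between 13.4 and 24.0 M reads in MDA-MB-231 and between 14.4 and 30.9 M in most 4T1 libraries, while the pair treated with 2 µM TAK901 in 4T1 held 6.00 and 3.75 M. The 4T1 libraries fell into 2 sets. Mammary epithelial markers were present in both, at sums of 3197 to 3251 CPM in DMSO 1 and 2 and 4374 to 4798 CPM in DMSO 3 and 4. Epcam was lower in DMSO 3 and 4, at 88.0 to 89.0 CPM and at 349.7 to 354.6 CPM in DMSO 1 and 2, while Krt8 was higher there, at 2443 to 2736 and 1016 to 1025 CPM. The gut and liver transcription factors Hnf4a, Cdx2 and Pdx1 had no read in the ENMD-2076 set and summed to 282 to 340 CPM in the TAK901 set, DMSO included. Both sets are labelled 4T1, and whether they are the same line was not tested. Each compound was therefore read only against the DMSO libraries of its own set, and levels set across the sets were not tested. Column headers of the ENMD-2076 tables read 10 µM and name no compound, and the labels were followed.

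The mouse genes lie, on GRCm38, at chr2:34771970-34777547 on the plus strand (GENCODE) for Hspa5, chr16:22857845-22879634 plus for Dnajb11, chr2:121413775-121438687 plus for Pdia3, and chr11:5520659-5525893 plus for Xbp1. These and Calr are protein-coding. Exons of Pdia3 share 18 bases with Catsper2 on the opposite strand, and exons of the other 4 overlap no annotated gene. The processed pseudogene Calr-ps had 0 reads in 11 4T1 libraries and 1 read in the other.

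The promoters of these genes were read because ER chaperone genes are known for the ER stress element, which factors of the unfolded protein response bind together with NF-Y. The element was searched as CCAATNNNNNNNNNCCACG, and its second form as ATTGG and CCACG with 1 base between them, on both strands of RefSeq windows from 250 bases before to 50 bases after each start (GRCm38.p6). Both forms hold the letters CCACG, which were also searched alone. Hspa5 held 1 element at positions -65 to -47 from its start, and Calr held 1 at -162 to -144 on the opposite strand. Dnajb11 held the second form at +8 to +18. The windows of Pdia3 and Xbp1 held neither form nor CCACG alone, and TGACGTGG, a site of XBP1 and ATF6, was in none of the 5 windows. In all 32851 windows the element was found in 39 (0.119%), the second form in 12 (0.0365%), CCACG in 10765 (32.8%) and TGACGTGG in 222 (0.676%). The stretches below show the Hspa5 element and the Dnajb11 second form. They also show the same 110 bases before the RefSeq start of Xbp1 and Pdia3, where no exact match of either form was found. The RefSeq starts of Hspa5, Pdia3 and Xbp1 differ from the GENCODE starts above. The Hspa5 and Pdia3 stretches lie inside the GENCODE genes. Capitals mark the fixed letters of a match, and each is written 5′ to 3′ on the plus strand.
Hspa5, chr2:34771980-34772089: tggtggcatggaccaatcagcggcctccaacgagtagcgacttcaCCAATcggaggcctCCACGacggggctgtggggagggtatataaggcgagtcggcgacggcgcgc
Dnajb11, chr16:22857843-22857872: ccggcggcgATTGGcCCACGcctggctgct
Xbp1, chr11:5520531-5520640: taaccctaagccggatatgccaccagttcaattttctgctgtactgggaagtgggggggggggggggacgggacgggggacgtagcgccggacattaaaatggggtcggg
Pdia3, chr2:121413792-121413901: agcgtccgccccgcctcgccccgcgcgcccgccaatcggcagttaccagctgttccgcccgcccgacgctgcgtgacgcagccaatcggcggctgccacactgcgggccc

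In 4T1 cells with 2.5 µM ENMD-2076 the 4 chaperones rose and Xbp1 fell. Dnajb11 rose 5.44-fold, Calr 3.86-fold, Pdia3 2.68-fold and Hspa5 1.98-fold, while Xbp1 stood at 0.288 of its DMSO level. Hence 4 of 5 genes passed the threshold upward and 1 downward by edgeR's quasi-likelihood test (adjusted p under 0.05 over 15375 genes), where 33.2% of all genes passed upward and 37.1% downward. At 1.25 µM 3 of 5 passed upward and none downward, against 22.6% and 23.2% of all genes.

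Hspa5 had 2182 and 2164 CPM with 2.5 µM ENMD-2076, against 1123 and 1077 CPM with DMSO. It had 1065 and 1075 CPM with 1.25 µM, against the same DMSO libraries. The 2.5 µM libraries were both above every other, and the 1.25 µM libraries lay just under DMSO. The log2 fold change was 0.98 ± 0.06 (SE, n = 2 each) at 2.5 µM, with an adjusted p of 6.6e-16 in the edgeR fit, and -0.04 ± 0.06 at 1.25 µM, with an adjusted p of 0.619. The doses themselves differed by 1.02 ± 0.06 (log2, 2.5 over 1.25 µM, edgeR adjusted p 1.9e-16).

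Dnajb11, the co-chaperone of BiP, had the largest fold change of the 5 genes. It had 266 and 270 CPM with 2.5 µM ENMD-2076, against 50.4 and 47.9 CPM with DMSO. With 1.25 µM it had 77 and 79.8 CPM, between the other groups and overlapping neither. The log2 fold changes were 2.45 ± 0.07 at 2.5 µM (edgeR adjusted p 4.1e-23) and 0.68 ± 0.07 at 1.25 µM (3.3e-09), and the doses differed by 1.77 ± 0.07 (1.7e-20).

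Calr, on the minus strand at chr8:84841850-84846934, had 901 and 928 CPM with 2.5 µM ENMD-2076, against 225 and 249.5 CPM with DMSO. With 1.25 µM it had 511 CPM in both libraries, so that the 3 groups stood apart. Of the 4 chaperones Calr had the largest log2 fold change at the lower dose, 1.11 ± 0.06 (edgeR adjusted p 1.9e-16), and a further 0.84 ± 0.06 between the doses (2.4e-14). At 2.5 µM it was 1.95 ± 0.06 (1.1e-22).

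Pdia3 had 859 and 857 CPM with 2.5 µM ENMD-2076, against 322 and 320 CPM with DMSO. With 1.25 µM it had 439 and 457 CPM, again between the other groups. The log2 fold changes were 1.42 ± 0.06 (edgeR adjusted p 5.0e-20) at 2.5 µM and 0.48 ± 0.06 (1.1e-08) at 1.25 µM, with 0.94 ± 0.06 between the doses (6.5e-16).

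Xbp1 moved the other way. It had 24.1 and 19.0 CPM with 2.5 µM ENMD-2076, from 382 and 215 reads, against 79.2 and 72.6 CPM with DMSO. With 1.25 µM it had 69.2 and 65.4 CPM, below both DMSO libraries by a narrow margin. Its log2 fold change was -1.80 ± 0.10 at 2.5 µM (edgeR adjusted p 1.7e-16) and -0.18 ± 0.09 at 1.25 µM (0.0906), and the doses differed by -1.62 ± 0.10 (1.6e-15). Without the 2.5 µM libraries in the fit the value at 1.25 µM was -0.18 with an adjusted p of 0.0432. Between the doses 4 of 5 genes passed upward and 1 downward, where 35.4% and 37.8% of all genes did. These comparisons share libraries: both doses were read against the same 2 DMSO libraries.

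**Figure D1:**
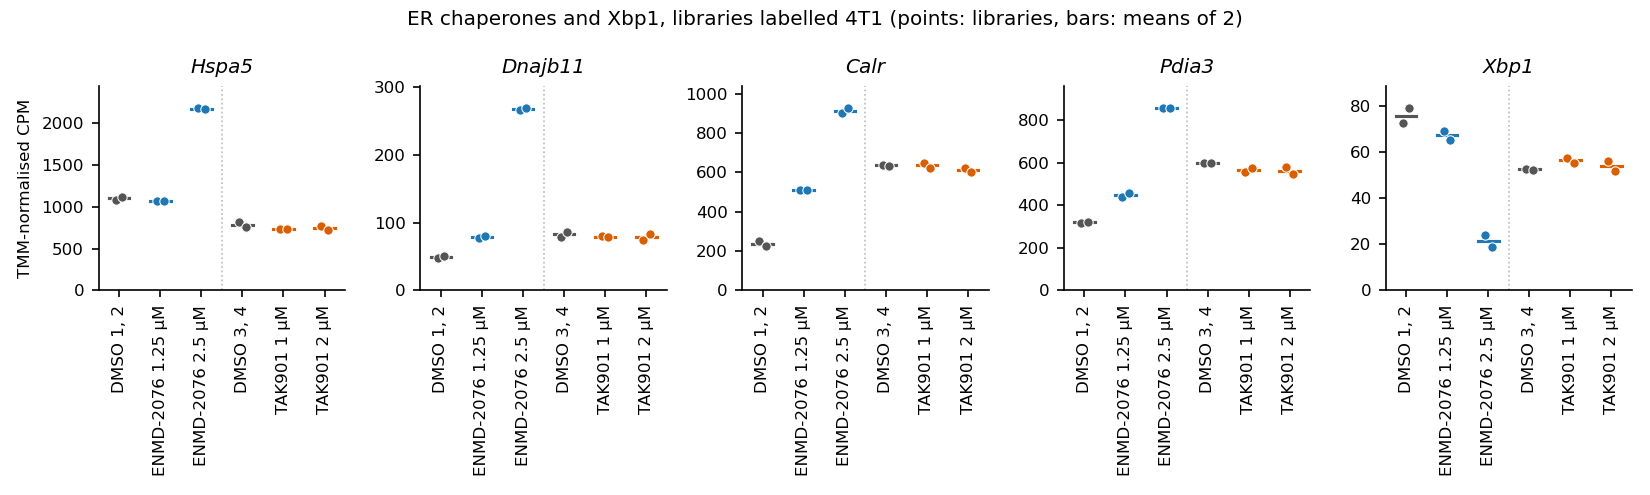
TMM-normalised CPM (y axis, from 0) of the 5 genes in each of 12 libraries labelled 4T1, by group (x axis). Points are libraries, bars are means of 2, and the dotted line parts the ENMD-2076 set from the TAK901 set. The 2.5 µM ENMD-2076 libraries are the highest of the 12 for the 4 chaperones and the lowest for Xbp1, while TAK901 libraries lie close to DMSO 3 and 4.

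Expressed per kilobase of exon, so that genes can be set beside each other, Hspa5 led the 5 genes at 2.5 µM ENMD-2076 with 514 ± 3.03 CPM per kb, followed by Calr at 318 ± 6.61, Pdia3 at 273 ± 0.402, Dnajb11 at 82.8 ± 0.811 and Xbp1 at 6.64 ± 1.11 (SD, n = 2). In DMSO 1 and 2 the order was Hspa5 at 260 ± 7.67, Pdia3 at 102 ± 0.506, Calr at 82.4 ± 6.03, Xbp1 at 23.4 ± 1.44 and Dnajb11 at 15.2 ± 0.565 CPM per kb. Calr thus stood above Pdia3, and Dnajb11 above Xbp1, with 2.5 µM ENMD-2076, and below them in DMSO. With 1.25 µM the order was that of 2.5 µM, with Dnajb11 at 24.2 ± 0.600 and Xbp1 at 20.7 ± 0.830 CPM per kb. In DMSO 3 and 4 Pdia3, at 191 ± 0.843, and Hspa5, at 186 ± 11 CPM per kb, did not differ beyond their spread, below Calr at 221 ± 1.58 and above Dnajb11 at 25.6 ± 1.56 and Xbp1 at 16.2 ± 0.125. In a bulk sample fewer cells with a transcript and less of it per cell cannot be told apart.

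The 2.5 µM ENMD-2076 libraries also differed from the others in makeup, and the part of this in the result was not tested. Mitochondrially encoded genes took 8.83 and 8.72% of their reads, against 3.92 and 4.13% in DMSO 1 and 2. With 1.25 µM this share was also above DMSO, at 6.21 and 7.09%. The noncoding Gm26917 took 0.219 and 0.200% with 2.5 µM, against 0.00365 and 0.00299% in DMSO and 0.00506 and 0.00417% with 1.25 µM. The TMM factors of the 2.5 µM libraries were 0.766 and 0.784, against 0.996 and 0.989 in DMSO. With total counts in place of TMM the median of all genes fell by 0.36 (log2) at 2.5 µM, and the members moved with it: Hspa5 was at 0.63, Dnajb11 at 2.09, Calr at 1.59, Pdia3 at 1.06 and Xbp1 at -2.16, each still past the threshold in its direction. Haematopoietic markers summed to 6.90 and 7.26 CPM, against 0.118 and 0.324 CPM in DMSO, with 6.76 and 6.81 CPM from Cd79a alone and no read of Cd3e in either group. Markers of professional secretory cells, which hold high Xbp1, summed to 169.6 to 172.5 CPM, against 135 to 144 CPM in DMSO. Of these Sdc1 held 169 to 171 CPM, against 134 to 143 CPM, Cela1 0.758 to 0.796, against 0.162 to 0.354, and Mzb1 0.189 to 0.619, against 0.0589 to 0.216, with Jchain and Cpa1 at 0 in both groups. Endothelial markers summed to 1.20 to 2.48 CPM, against 0.108 to 0.236 CPM. Fibroblast markers summed to 32.1 to 37.2 CPM, against 37.0 to 44.1 CPM. Mammary epithelial markers summed to 2334 to 2412 CPM, against 3197 to 3251 CPM. Of these Krt18 was at 515 to 524 CPM, against 1404 to 1423 CPM. Epcam, at 339.3 to 345.7 CPM, against 349.7 to 354.6 CPM, and Esr1 were also lower. Cdh1 was higher, at 482.8 to 499.8 CPM, against 410.6 to 434.9 CPM. Krt14 was higher too, at 3.804 to 7.136 CPM, against 0.2947 to 0.6488 CPM. Krt8 overlapped DMSO, at 989.6 to 1032 CPM, against 1016 to 1025 CPM.

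**Figure D2:**
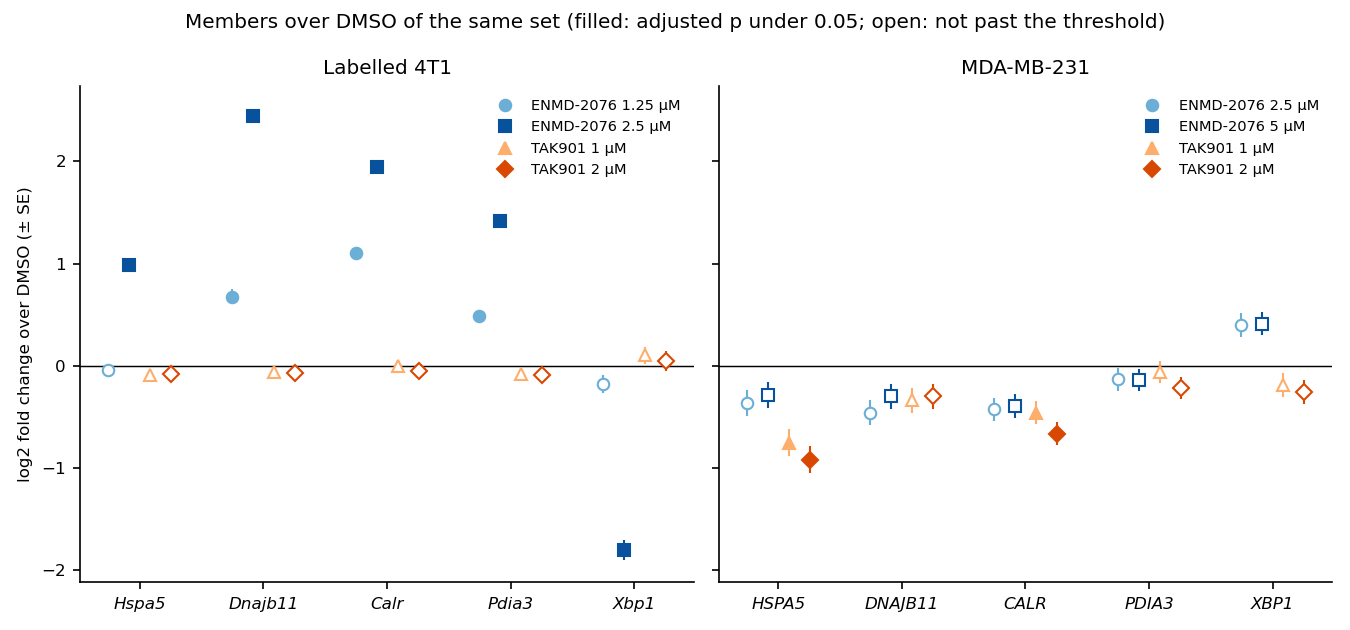
Log2 fold change over DMSO of the same set (y axis, error bars SE) of the 5 genes in libraries labelled 4T1 (left) and in MDA-MB-231 (right), for each compound and dose. Filled symbols passed an adjusted p of 0.05 and open symbols did not. The 4 chaperones lie above 0 and Xbp1 below it with 2.5 µM ENMD-2076 in 4T1, while in MDA-MB-231 the filled symbols are HSPA5 and CALR with TAK901.

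Other genes of the ER moved in both directions at 2.5 µM ENMD-2076, with more rising than falling in the folding groups. Of 13 ER chaperones and co-chaperones, the members included, 10 rose and 2 fell, at a median (log2) of 0.82, beside -0.02 over all genes. Manf, an ER-resident secreted factor, had the largest rise after Dnajb11, by 2.06 ± 0.08 (edgeR adjusted p 2.1e-20), and Creld2 by 1.72 ± 0.12 (4.9e-14). The collagen chaperone Serpinh1 was at -1.10 ± 0.07 (1.1e-15) and the membrane-bound co-chaperone Dnajc1 at -0.71 ± 0.11 (1.4e-06). Of 15 disulphide isomerases and oxidases 12 rose and 1 fell (median 0.79), led by Pdia5 at 1.76 ± 0.16 (3.8e-11) and Txndc5 at 1.75 ± 0.06 (1.9e-21). The 1 that fell was Txndc12 at -0.25 ± 0.11 (0.0342). Of 10 genes of the calnexin and calreticulin cycle 7 rose and 1 fell (median 0.46), with calnexin itself, Canx, at 0.72 ± 0.06 (1.1e-12) and the glucosidase Mogs at -0.33 ± 0.10 (0.00521).

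ER-associated degradation, which draws misfolded proteins out of the ER to the proteasome, was divided. Of 15 tested genes 8 rose and 6 fell (median 0.25), and Derl3 did not pass the filter on low counts. The segregase Vcp rose by 1.23 ± 0.06 (edgeR adjusted p 4.7e-18) and the mannosidase-like Edem1 by 0.89 ± 0.08 (1.7e-11), whereas the lectin Erlec1 was at -1.28 ± 0.14 (8.6e-10) and Fam8a1 at -1.21 ± 0.09 (2.8e-13). Over the 52 tested genes of these 4 lists 36 rose and 10 fell. With total counts in place of TMM the split was 26 and 16, with 9 and 3 for the isomerases, 5 and 6 for degradation, and 3 and 4 for the calnexin and calreticulin cycle. Prkcsh and Tmx3 were lower there (adjusted p 0.0146 and 0.0228), and Erp29 and Ube2j1 changed sign without passing. At 1.25 µM 13 of the 52 rose and 14 fell, with a median of -0.05.

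Sensors and factors that act on ER chaperone genes fell more often than they rose. Of 13 sensors and transcription factors of the unfolded protein response, Xbp1 included, 4 rose and 8 fell at 2.5 µM (median -1.19), and 3 rose and 7 fell at 1.25 µM (median -0.28). With total counts the split at 2.5 µM was 2 and 9. Ern1, which encodes the IRE1 kinase and RNase that splices Xbp1, averaged 43.7 CPM with 2.5 µM, against 151 CPM with DMSO, a log2 fold change of -1.80 ± 0.08 (edgeR adjusted p 5.4e-19). Atf6, the sensor cleaved in the Golgi, was at -1.19 ± 0.07 (7.1e-16), and Mbtps2, the site-2 protease that cleaves it, at -2.08 ± 0.10 (6.0e-18). Eif2ak3, which encodes the sensor PERK, was higher instead, at 1.20 ± 0.09 (2.7e-13).

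Downstream of PERK, Atf4 was at -1.58 ± 0.06 (edgeR adjusted p 1.9e-20) and Ddit3, which encodes CHOP, at -2.95 ± 0.12 (4.0e-20), with an average of 11.4 CPM, against 87.5 CPM with DMSO. Creb3l2 was at -1.46 ± 0.14 (6.6e-11). The NF-Y subunits, which bind the CCAAT part of the element, were at 1.49 ± 0.08 for Nfya (3.9e-17), -0.13 ± 0.10 for Nfyb (0.242) and -0.53 ± 0.10 for Nfyc (2.3e-05). Atf6b at 0.30 ± 0.07 (1.9e-04) and Mbtps1 at 0.30 ± 0.06 (3.5e-05) passed upward with TMM but were at -0.06 each with total counts, where neither passed. Several of these genes were already lower at 1.25 µM: Ddit3 was at -2.28 ± 0.10 (3.1e-18), Atf4 at -1.65 ± 0.06 (8.1e-21), Ern1 at -1.07 ± 0.07 (6.3e-14) and Atf6 at -0.98 ± 0.07 (1.1e-13), a dose at which Xbp1 and Hspa5 did not pass.

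**Figure D3:**
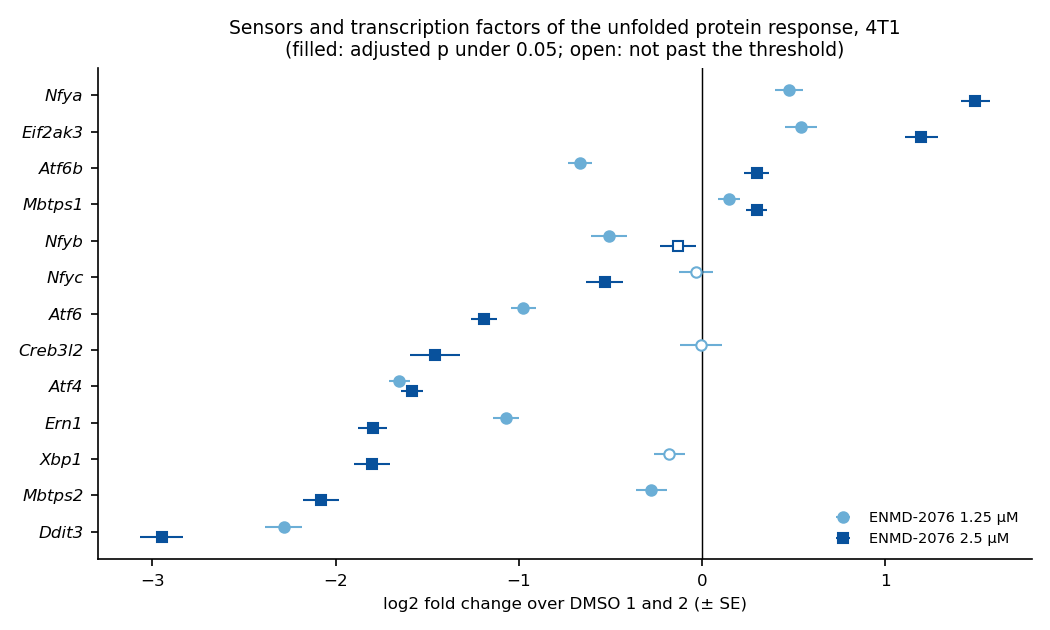
Log2 fold change over DMSO 1 and 2 (x axis, error bars SE) of 13 sensors and transcription factors of the unfolded protein response in 4T1 with 1.25 µM (circles) and 2.5 µM (squares) ENMD-2076. Filled symbols passed an adjusted p of 0.05. Nfya and Eif2ak3 lie at 1.20 and above with 2.5 µM, whereas Ern1, Xbp1, Mbtps2 and Ddit3 lie at -1.80 and below.

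Neighbouring steps of the secretory pathway moved in the direction of the chaperones more often than against it. Of 17 genes of translocation and signal peptide cleavage 13 rose and 1 fell at 2.5 µM (median 0.57), among them the translocon-associated subunit Ssr1 at 1.71 ± 0.06 (edgeR). Of 15 genes of COPII and ER to Golgi transport 9 rose and 3 fell (median 0.61). The KDEL receptor Kdelr2, which returns BiP and calreticulin to the ER, was at 1.89 ± 0.07 and the coat subunit Sec13 at 1.66 ± 0.07. Kdelr1, also a KDEL receptor, fell instead, at -0.69 ± 0.09, as did Sec24c, at -0.48 ± 0.08. With total counts these splits were 9 and 4, and 8 and 5. Of the 8 genes of MHC class I peptide loading 5 rose and 3 fell. The 3 that fell were the peptide transporter subunits Tap1, at -1.87 ± 0.20, and Tap2, at -1.33 ± 0.13, and the aminopeptidase Erap1, at -0.34 ± 0.11, while Calr and Pdia3 are in the same list and rose. At 1.25 µM 6 of these 8 rose and none fell, with Tapbp at 1.47 ± 0.06 and Erap1 at 1.24 ± 0.10.

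Chaperones outside the ER also changed. Among 10 cytosolic chaperones 6 rose and 2 fell at 2.5 µM (median 0.73). The inducible HSP70 gene Hspa1b averaged 469 CPM, against 63.3 CPM with DMSO (log2 fold change 2.89 ± 0.08, edgeR), and its near-identical copy Hspa1a averaged 0.221 CPM, against 0.118 CPM, so that reads of the pair cannot be divided with certainty. Hsp90aa1 was at 1.22 ± 0.06, Hspa4 at 1.06 ± 0.06 and Hsp90ab1 at 0.75 ± 0.06. Dnajb1 passed upward, with averages of 101 CPM and, in DMSO, 46.3 CPM. The constitutive HSP70 gene Hspa8 was at -1.54 ± 0.06 and its co-chaperone Dnaja1 at -0.42 ± 0.07. Hsph1 passed at 0.35 ± 0.06 with TMM and was at -0.00 with total counts. Hspb1 had under 0.3 CPM on average in both groups and did not pass at 2.5 µM. Among 8 mitochondrial chaperones and proteases 7 rose and 1 fell (median 0.86), with Hspe1 at 1.67 ± 0.07 and Hspd1 at 1.52 ± 0.06. At 1.25 µM none of these 8 rose and 5 fell.

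**Figure D4:**
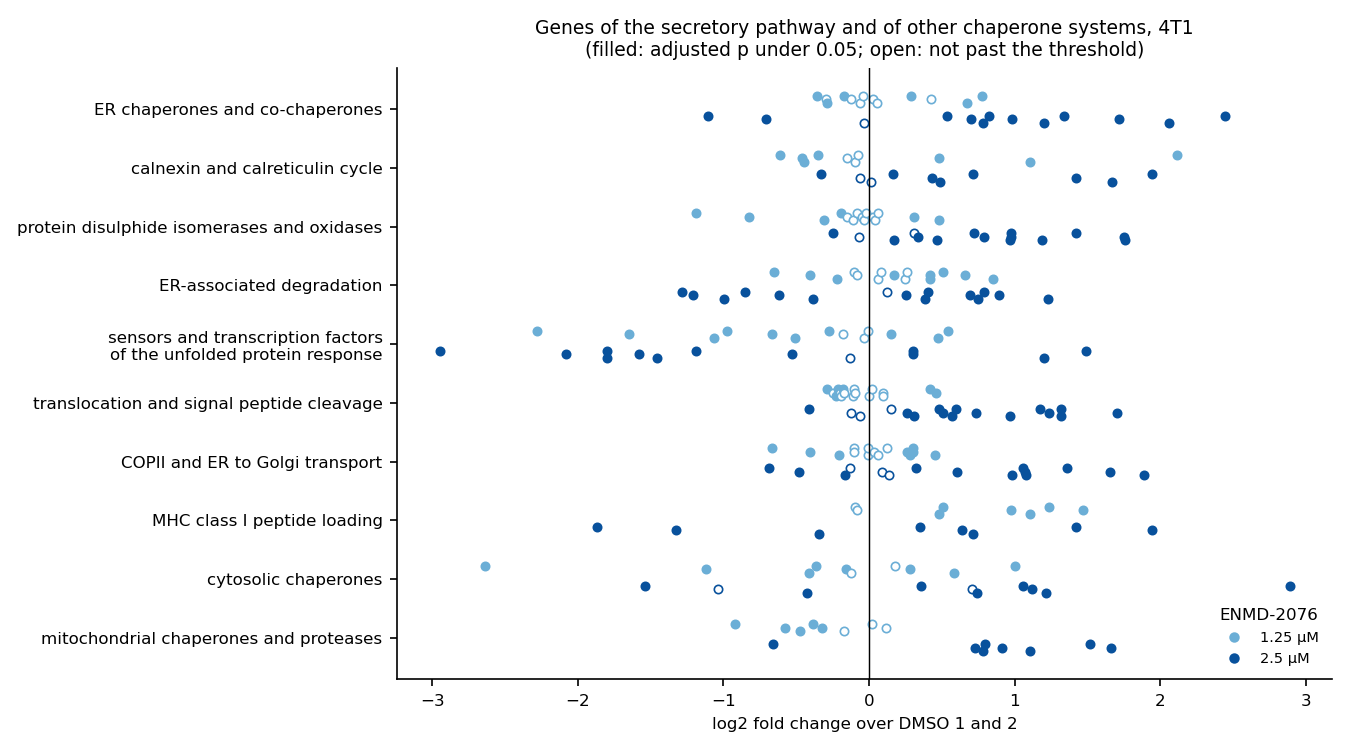
Log2 fold change over DMSO 1 and 2 (x axis) of every tested gene of 10 lists (y axis) in 4T1 with 1.25 µM (light) and 2.5 µM (dark) ENMD-2076. Each point is 1 gene, filled where it passed an adjusted p of 0.05. At 2.5 µM the ER chaperone and disulphide isomerase lists have medians of 0.82 and 0.79, and the sensors a median of -1.19.

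The element of the Hspa5 promoter was present in other genes of the 4 ER lists. RefSeq windows were held for 44 of the 53 listed genes, and 12 of those 44 had the element or its second form. Over the 11 of these that were tested, log2 fold changes at 2.5 µM ran from 0.31 to 2.45. Of them 10 rose, and Ero1lb, at 0.31 ± 0.20, did not pass. The 11 include the members Hspa5, Dnajb11 and Calr. Of the 32 tested genes with a window and neither form 19 rose and 9 fell, from -1.21 to 1.76. This difference was not tested, and both counts were made with TMM scaling only. At this dose 33.2% of all genes passed upward and 37.1% downward, and total counts shift the log2 fold changes by a median of -0.36. The elements of genes near the members in function are shown with the fixed letters in capitals, on the strand that reads CCAAT first. Those of Hsp90b1, which encodes the ER form of HSP90 and was at 1.20 ± 0.06, of Canx and of Creld2 were chosen for display after their values were seen. Hsp90b1 held 2 elements, at -212 to -194 and -107 to -89, and both are shown.
Hsp90b1, chr10:86705632-86705661, minus strand: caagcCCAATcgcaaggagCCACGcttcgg
Hsp90b1, chr10:86705527-86705556, plus strand: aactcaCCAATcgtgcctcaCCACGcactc
Canx, chr11:50325794-50325823, minus strand: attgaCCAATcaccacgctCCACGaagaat
Creld2, chr15:88819515-88819544, minus strand: tgtggaCCAATtgaggctcgCCACGagaag

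TAK901 left the 5 mouse genes near the level of DMSO 3 and 4. None of the 5 passed in either direction at 1 µM, where 3.97% of all genes passed upward and 5.17% downward, or at 2 µM, where 5.63% and 9.28% did. At an unadjusted p under 0.05 the count was 0 of 5 at both doses, against 3153 and 4030 of all genes. DESeq2 also called 0 of 5, where it called 5.27% of genes upward and 6.59% downward at 1 µM, and 7.76% and 9.20% at 2 µM. With 1 µM Hspa5 had 739 CPM in both libraries, against 821 and 756 CPM with DMSO, and with 2 µM it had 770 and 719 CPM. Its log2 fold changes were -0.09 ± 0.06 and -0.08 ± 0.06 (edgeR adjusted p 0.385 and 0.418).

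Calr had 648 and 624 CPM with 1 µM TAK901 and 625 and 602 CPM with 2 µM, against 639 and 633 CPM with DMSO 3 and 4. Pdia3 had 555 and 577 CPM with 1 µM and 581 and 547 CPM with 2 µM, against 598 and 602 CPM. For Pdia3 all 4 treated libraries lay under both DMSO libraries, by log2 fold changes of -0.08 and -0.09 that did not pass (edgeR adjusted p 0.427 and 0.342). Dnajb11 had 80.6 and 78.3 CPM with 1 µM and 75.1 and 84.0 CPM with 2 µM, against 79.4 and 86.5 CPM. Xbp1 had 57.3 and 55.4 CPM with 1 µM and 56.2 and 51.8 CPM with 2 µM, against 52.8 and 52.2 CPM, at log2 fold changes of 0.10 ± 0.09 and 0.05 ± 0.10 (0.571 and 0.828). The 2 µM libraries were the shallowest, with 373 and 217 Xbp1 reads.

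Between the TAK901 doses none of the 5 genes passed, where 0.0455% of all genes passed upward and 0.0260% downward. At an unadjusted p under 0.05 the count was again 0 of 5, against 1194 of all genes, and DESeq2 called 0 of 5, where it called 0.144% of genes upward and 0.184% downward. Of the 52 ER folding and degradation genes 4 rose and 5 fell at 1 µM, against 3.97% and 5.17% of all genes. At 2 µM 6 rose and 7 fell, against 5.63% and 9.28% of all genes (edgeR, over DMSO 3 and 4). With total counts the splits were 4 and 3, and 6 and 4. Without 1 of the TAK901 1 µM or DMSO libraries the 9 calls at 1 µM came to 0 to 2, and without 1 of the TAK901 2 µM or DMSO libraries the 13 calls at 2 µM came to 5 to 8. Manf was at -0.32 ± 0.08 at 1 µM (adjusted p 0.00622) and Hyou1, an ER chaperone of the HSP110 kind, at -0.29 ± 0.07 at 2 µM (0.00308). Erlec1 and Herpud1, both of ER-associated degradation, were at 0.61 ± 0.11 (2.5e-04) and 0.42 ± 0.07 (5.1e-05) at 2 µM. Edem1 and Vcp of the same list went the other way, at -0.38 ± 0.09 and -0.31 ± 0.06 (edgeR adjusted p 0.00196 and 4.7e-04). The ER chaperone genes Sil1 and Dnajb9 were higher at 2 µM, at 0.49 ± 0.13 and 0.37 ± 0.125 (0.00868 and 0.0421). Of the 13 sensors and factors 1 passed at either dose, Atf4, at -0.27 ± 0.06 (0.00164) at 1 µM and -0.19 ± 0.06 (0.0338) at 2 µM. The call at 2 µM was lost with RLE factors (adjusted p 0.0873), total counts (0.165) and DESeq2 (0.0662), and with total counts Eif2ak3 (0.0438) and Atf6b (0.0310) passed upward there.

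Before any compound, the DMSO libraries of the sets held different levels of these genes. DMSO 3 and 4 averaged 636 ± 4.56 CPM of Calr, 600 ± 2.65 of Pdia3 and 83.0 ± 5.04 of Dnajb11, and DMSO 1 and 2 averaged 237 ± 17.4, 321 ± 1.59 and 49.2 ± 1.83 CPM (SD, n = 2 each). The order was the opposite for Hspa5, at 788 ± 46.5 and 1100 ± 32.5 CPM, and for Xbp1, at 52.5 ± 0.406 and 75.9 ± 4.67 CPM. Across all groups Calr was therefore higher in DMSO 3 and 4 than with 1.25 µM ENMD-2076, at 511 ± 0.409 CPM, and lower than with 2.5 µM, at 915 ± 19.1 CPM.

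In MDA-MB-231 cells HSPA5 and CALR were lower with TAK901. At 1 µM 2 of 5 genes passed downward and none upward, where 7.47% and 6.46% of all 14826 genes did. At 2 µM it was again 2 downward and none upward, where 16.0% and 15.2% of all genes did. HSPA5 had 857 and 860 CPM with 1 µM and 865 and 664 CPM with 2 µM, against 1498 and 1388 CPM with DMSO. All 4 TAK901 libraries were below both DMSO libraries, and the 2 µM libraries were far apart. The log2 fold changes were -0.75 ± 0.13 (edgeR adjusted p 0.00219) and -0.92 ± 0.13 (1.4e-04).

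CALR had 763 and 737 CPM with 1 µM TAK901 and 702 and 600 CPM with 2 µM, against 1086 and 978 CPM with DMSO. The groups did not overlap, and the log2 fold changes were -0.46 ± 0.11 (edgeR adjusted p 0.0167) and -0.67 ± 0.11 (6.3e-04). The value at 1 µM did not pass without DMSO replicate 1 (adjusted p 0.134), without TAK901 1 µM replicate 1 (0.081) or without its replicate 2 (0.116). DNAJB11 had 90.7 and 88.0 CPM with 1 µM and 102 and 81.9 CPM with 2 µM, against 119 and 108 CPM with DMSO. It lay below DMSO in all 4 TAK901 libraries, at log2 fold changes of -0.34 ± 0.12 and -0.30 ± 0.12 that did not pass (0.0816 and 0.0796).

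PDIA3 had 431 CPM in both 1 µM TAK901 libraries and 411 and 363 CPM with 2 µM, against 435 and 464 CPM with DMSO. Its log2 fold changes were -0.06 ± 0.11 and -0.22 ± 0.11 (edgeR adjusted p 0.765 and 0.158). XBP1 had 88.5 and 88.2 CPM with 1 µM and 91.7 and 76.3 CPM with 2 µM, against 99.6 and 101 CPM with DMSO, at -0.19 ± 0.12 and -0.26 ± 0.12 (0.318 and 0.108). Replicate 1 of 2 µM was nearer to DMSO than replicate 2 for all 5 genes. The TMM factors of these replicates were 0.951 and 1.049. With total counts the order held, but the replicates lay closer together, with PDIA3 at 391 and 380 CPM and CALR at 667 and 628 CPM. Without replicate 1 all 5 genes passed downward at 2 µM, where 15.1% of all genes passed upward and 18.1% downward. HSPA5 and CALR then passed downward between the doses, at -0.37 (edgeR adjusted p 0.0042) and -0.33 (0.0144), where 1.84% and 4.42% of all genes did. In that fit the 2 µM group is 1 library, the one farther from DMSO, and is assumed to vary like the other groups. With both replicates none of the 5 passed between the doses in edgeR, in DESeq2, or at an unadjusted p under 0.05, which 3128 of all genes reached. Of all genes 1.09% passed upward and 2.66% downward between the doses in edgeR, and 3.05% and 5.39% in DESeq2.

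With ENMD-2076 none of the 5 human genes passed in the fit of all 10 libraries, at 2.5 µM, where 0.519% of all genes passed upward and 0.0877% downward, or at 5 µM, where 2.70% and 2.19% did. At an unadjusted p under 0.05 the count was 4 of 5 at each dose, HSPA5, DNAJB11, CALR and XBP1, against 1773 and 2954 of all genes. DESeq2 called CALR downward at 2.5 µM (adjusted p 0.0281), where it called 1.13% of genes upward and 0.409% downward. At 5 µM it called CALR downward (0.018) and XBP1 upward (0.0415), where it called 3.82% and 3.59%. HSPA5 had 1142 and 1106 CPM with 2.5 µM and 1244 and 1120 CPM with 5 µM, against 1498 and 1388 CPM with DMSO. Every ENMD-2076 library was below both DMSO libraries, at log2 fold changes of -0.36 ± 0.13 and -0.29 ± 0.13 (edgeR adjusted p 0.273 and 0.227).

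CALR had 763 and 772 CPM with 2.5 µM ENMD-2076 and 795 and 776 CPM with 5 µM, against 1086 and 978 CPM with DMSO, at -0.43 ± 0.11 and -0.39 ± 0.11 (edgeR adjusted p 0.134 and 0.0626). DNAJB11 had 83.3 and 81.0 CPM with 2.5 µM and 91.7 and 92.1 CPM with 5 µM, against 119 and 108 CPM, at -0.46 ± 0.12 and -0.30 ± 0.12 (0.134 and 0.185). Both genes lay below DMSO in all 4 treated libraries. PDIA3 had 410 and 411 CPM with 2.5 µM and 433 and 385 CPM with 5 µM, against 435 and 464 CPM, at -0.13 ± 0.11 and -0.14 ± 0.11 (0.690 and 0.535). XBP1 was the 1 member above DMSO, with 127 and 138 CPM at 2.5 µM and 138 and 130 CPM at 5 µM, against 99.6 and 101 CPM, at 0.40 ± 0.12 and 0.41 ± 0.12 (0.169 and 0.0565).

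The ENMD-2076 calls differed with and without the TAK901 2 µM libraries, and the cause was not tested. The chi-square per degree of freedom between the pair was 59.3, against 4.51 to 8.56 for the other MDA-MB-231 pairs. Without both of them HSPA5, DNAJB11 and CALR passed downward and XBP1 upward at 2.5 µM (edgeR adjusted p 9.1e-04, 0.00143, 1.3e-04 and 0.00383). The same 4 genes passed at 5 µM (0.00267, 0.0184, 9.6e-05 and 0.00114). In those fits 3.24% of all genes passed upward and 3.35% downward at 2.5 µM, and 7.69% and 9.32% at 5 µM. The same 3 genes passed downward and XBP1 upward at both doses when 1 library of TAK901 2 µM was left out. Without replicate 1, 3.14% of all genes passed upward and 3.03% downward at 2.5 µM, and 7.30% and 8.13% at 5 µM. Without replicate 2 these shares were 3.19% and 2.87%, and 7.42% and 8.05%. With all 10 libraries kept, CALR also passed with no filter on low counts at 2.5 µM (0.0358) and 5 µM (0.0261). At 1 µM TAK901, 3 genes passed downward without them, DNAJB11 (0.00517) beside HSPA5 and CALR, where 12.5% and 15.0% of all genes passed upward and downward. Between the ENMD-2076 doses none of the 5 passed in edgeR, DESeq2 or at an unadjusted p under 0.05, where 0.00674% of all genes passed in each direction in edgeR, 0.0611% upward and 0.00763% downward in DESeq2, and 804 genes had an unadjusted p under 0.05.

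**Figure D5:**
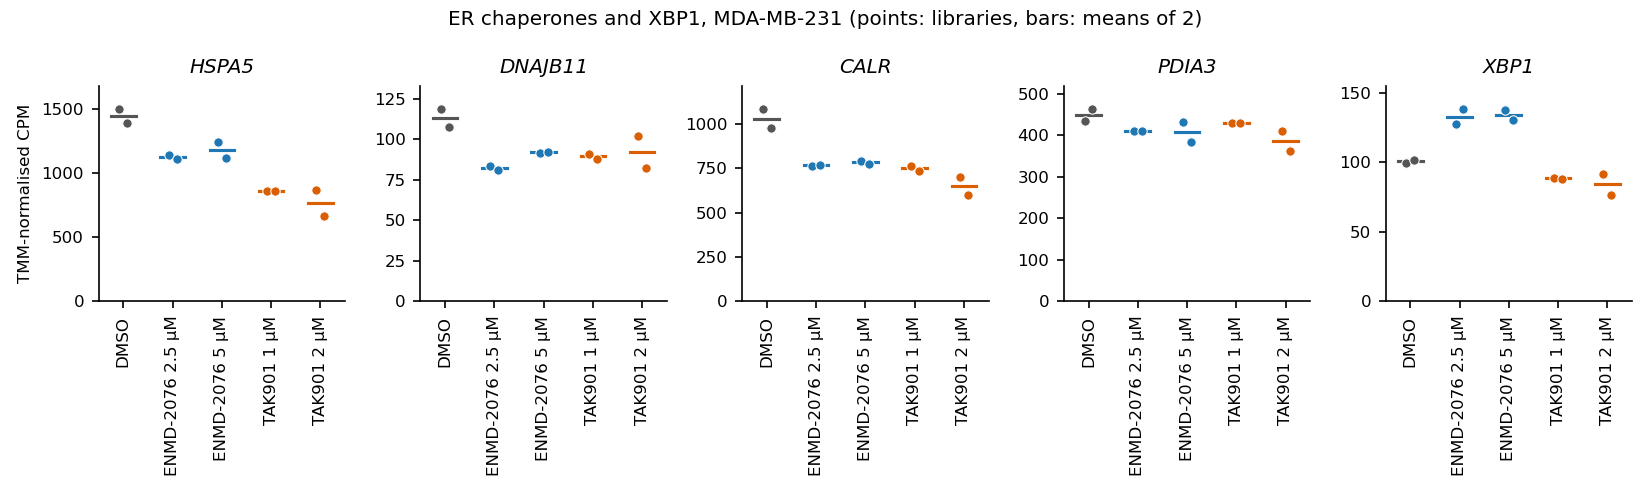
TMM-normalised CPM (y axis, from 0) of the 5 genes in each of 10 MDA-MB-231 libraries, by group (x axis). Points are libraries and bars are means of 2. HSPA5 and CALR lie below DMSO in every treated library, XBP1 lies above DMSO with ENMD-2076 and below it with TAK901, and the TAK901 2 µM pair is the widest apart for HSPA5, DNAJB11 and XBP1.

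The labels of both lines give ENMD-2076 at 2.5 µM. For 4T1 the column headers and the growth protocol give other doses, so the doses may not be equal. At this labelled dose the log2 fold changes were 0.98 in 4T1 and -0.36 in MDA-MB-231 for Hspa5 and HSPA5. They were 2.45 and -0.46 for Dnajb11 and DNAJB11, 1.95 and -0.43 for Calr and CALR, and 1.42 and -0.13 for Pdia3 and PDIA3. Xbp1 and XBP1 were at -1.80 and 0.40. The signs were opposite in all 5 pairs, and the share of all genes with opposite signs in the lines was not computed. The difference between the lines was not tested, since the tables count genes of different species, and none of the MDA-MB-231 values passed in the fit of all libraries.

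Over the 12 libraries labelled 4T1, centred on the DMSO of their set, log2 CPM of Hspa5 had a Pearson r of 0.95 with Dnajb11, 0.93 with Pdia3, 0.84 with Calr and -0.98 with Xbp1. The points share libraries, and the 2.5 µM pair stands apart, so these are descriptions. Among 10548 genes with a mean of at least 5 CPM the genes most like Hspa5 were Psmd5 (0.997), Txn2 (0.996) and Dlst (0.996). Those most like Xbp1 were Ppox (0.997), Pld2 (0.996) and Nlk (0.996). Over the 10 MDA-MB-231 libraries r with HSPA5 was 0.90 for CALR, 0.62 for XBP1, 0.62 for PDIA3 and 0.58 for DNAJB11. Among 10724 genes the IDs most like HSPA5 were ENSG00000170961.6 (0.990) and ENSG00000049541.6 (0.989).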

How the data were processed

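RNA was extracted as total RNA, made into libraries with an NEBNext Ultra kit and sequenced on an Illumina HiSeq instrument, per the labels' protocols. The authors deposited a table of unnormalised gene counts per library, in whole numbers, and FastQC 0.11.3, Bowtie, TopHat, HTSeq and DESeq2 are named with the builds hg38 and mm10 in the submitters' processing notes. Whether reads were counted by strand is not given in the sources used here. For each line, counts of all groups were fitted together with edgeR 4.0.16 (filterByExpr, TMM, quasi-likelihood test, R 4.3.3), with p-values adjusted by Benjamini-Hochberg over all genes and a threshold of 0.05. SE is the log2 fold change divided by the root of its F value. The fit was tested on simulated data.

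The 12 comparisons set each dose against the DMSO libraries of its line and naming set, and the doses of a compound against each other. Alternatives were DESeq2 1.42.0, RLE and total-count scaling, no filter on low counts, smaller fits, a replicate block and leaving out each library. The labels' 1.25 and 2.5 µM were used for 4T1, where the growth protocol gives 1 or 2 µM. Symbols were found for 37607 of 38924 mouse IDs. Human gene lists and promoters were not analysed here. The members and gene lists were chosen with earlier results of these data known. Of each list up to 2 genes with the largest rise and 2 with the largest fall past the threshold are named, any sensor or cytosolic chaperone may be, and a few others, such as Canx and Hsp90b1, were named after their values were seen.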

Additional observations from a re-analysis of the deposited data

Results flagged for a closer look

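With 2.5 µM ENMD-2076 all 5 members lay on opposite sides of DMSO in libraries labelled 4T1 and in MDA-MB-231, as did Xbp1 with 1 µM TAK901. Every library of a group was on the same side of the mean of its DMSO libraries. How large a share of all genes did the same in both lines was not computed. None of the 5 MDA-MB-231 values with ENMD-2076 passed in the fit of all libraries. With TAK901 Hspa5, Dnajb11 and Pdia3 had negative log2 fold changes in libraries labelled 4T1 and in MDA-MB-231 at both doses, as had Calr at 2 µM. The difference between the lines was not tested. For 4T1 the 2.5 µM dose is that of the labels, while the column headers and the growth protocol give other doses. At 2.5 µM ENMD-2076 the log2 fold change of Hspa5 was 0.98 in 4T1, where HSPA5 had -0.36 in MDA-MB-231. Dnajb11 stood at 2.45 and DNAJB11 at -0.46, Calr at 1.95 and CALR at -0.43, and Pdia3 at 1.42 and PDIA3 at -0.13. Xbp1 stood at -1.80 and XBP1 at 0.40. At 1 µM TAK901 Xbp1 was at 0.10 in the libraries labelled 4T1 and XBP1 at -0.19 in MDA-MB-231, neither past the threshold in edgeR.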

How the results depend on the processing

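Of 1080 alternative values of single members 1029 kept their side of the threshold, 3 lost the call and 48 gained it. None changed direction where either fit passed. Values that passed in neither fit could change sign and were counted as kept. DNAJB11 between the TAK901 doses in MDA-MB-231, for example, was at 0.04 and as low as -0.13 without 1 library. The number of members past the threshold moved in MDA-MB-231. For ENMD-2076 at 2.5 µM it was 0, and 1 with DESeq2 or with no filter, 4 with only the 2 groups fitted and 4 without both TAK901 2 µM libraries. At 5 µM it was 0, and 2 with DESeq2, 1 with no filter, 4 with only the 2 groups fitted, 4 without both TAK901 2 µM libraries and 1 with the replicate block. In either line the share of all genes past the threshold was not computed for fits with no filter, only 2 groups or a replicate block. Counts from those fits cannot be set beside such a share. Leaving out 1 library gave 0 to 4 at both ENMD-2076 doses, 1 to 3 for TAK901 at 1 µM, 2 to 5 at 2 µM and 0 to 2 between its doses. In libraries labelled 4T1 the 9 ER genes past the threshold with 1 µM TAK901 became 17 with only the 2 groups fitted and 15 with only the TAK901 set fitted. Without 1 library they became 0 to 12. At 2 µM the 13 became 5 to 15 without 1 library. Between TAK901 doses the 0 became 1 with the 2 groups fitted and 1 with the replicate block. The cause was not tested. Same-numbered libraries deviated together with r from -0.021 to 0.106. Since the labels do not say that the numbers pair libraries, the main fit held no replicate block. With CPM of total counts in place of TMM, 26 of 55 member levels moved by more than their SD. The 2 libraries per group limit the precision, as do the low Xbp1 counts in libraries labelled 4T1. There the 2.5 µM ENMD-2076 pair had 382 and 215 reads and the 2 µM TAK901 pair 373 and 217.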
